A study of Gallus gallus with 5 samples.

Results

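TACR1, PTGER3 and CRHR1 encode cell surface receptors that couple to G proteins, and their transcripts were followed across 5 libraries of chicken (Gallus gallus) blastoderm, the flat early embryo of the freshly laid egg. They are 3 of the 10102 genes that received a symbol in the deposited tables, and each was found in 1 row. The 3 genes were chosen by name with their measured values in these libraries known, so their levels and ratios are a description and carry no test. Blastoderms had been kept for 7 days at 4 °C, at 16 °C or at 24 °C, or had been incubated for 4 h at 37 °C, and were set against unstored blastoderms. The labels give no strain, stage or number of blastoderms in a library. Each condition had 1 library, so no standard deviation, p-value or interval can be given, and every difference has no replicate check.

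Neuropeptides and prostanoids are local signals that cells read through receptors with a bundle of membrane-spanning helices. TACR1 is the receptor of substance P, a peptide cut from the TAC1 precursor, and in mammals it acts mainly through Gq proteins, phospholipase C and calcium. PTGER3 is the EP3 receptor of prostaglandin E2, a lipid made from arachidonate by the cyclooxygenases PTGS1 and PTGS2, and in mammals it acts mainly through Gi proteins, which lower cyclic AMP. CRHR1 is a class B receptor of corticotropin-releasing hormone (CRH) and of urocortin, and acts mainly through Gs proteins, which raise cyclic AMP. In the adult these receptors are best known from brain, pituitary gland, gut and smooth muscle.

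The libraries carried blastoderm transcripts. Of 16 epiblast markers, 10 were measured, and their FPKM (sequenced fragments set against the length of the transcript and the size of the library) summed to between 1009 and 2147 per library. NANOG ranged from 223 to 526 and EPCAM from 391 to 647, while SOX2 stayed between 0.09 and 0.33. FPKM over all rows summed to between 333528 and 389061 per library, and between 6928 and 7220 genes reached an FPKM of 1. FPKM do not give the number of reads behind a value, so the depth is unknown.

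TACR1 was high in 2 libraries and low in 3. It stood at FPKM 13.0 in the library stored at 4 °C, 0.97 at 16 °C, 0.68 at 24 °C and 1.52 in the incubated library, against 12.4 in the unstored library. The libraries stored at 4 °C and unstored lay close together, and the other 3 lay far below both. The level at 24 °C was 5.48% of the unstored level, that at 16 °C 7.81% and that in the incubated library 12.2%. From its highest to its lowest library TACR1 spanned 19.1-fold, the widest span of the 3 genes. As bulk RNA was measured, fewer cells that carry a transcript and less of it per cell cannot be told apart.

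PTGER3 was lower in the same 3 libraries, but by less and in another order. Its FPKM was 8.65 at 4 °C, 5.12 at 16 °C, 3.56 at 24 °C and 2.0 in the incubated library, against 8.97 in the unstored library. The incubated library held the least, at 22.3% of the unstored level, and the library stored at 24 °C held 39.7%. The span from highest to lowest library was 4.49-fold.

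CRHR1 went the other way and was lowest in the unstored library. It stood at FPKM 8.60 at 4 °C, 12.2 at 16 °C, 9.53 at 24 °C and 8.41 in the incubated library, against 3.86 in the unstored library. All 4 other libraries were more than 2-fold above the unstored one in plain FPKM, with ratios of 2.23 at 4 °C, 3.16 at 16 °C, 2.47 at 24 °C and 2.18 after incubation. Unlike TACR1 and PTGER3, it therefore differed from unstored at 4 °C too. No spread between replicates exists to say which neighbours in these orders differ, and the values at 4 °C and after incubation lay within 0.03 of each other on the log2 scale.

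**Figure D1:**
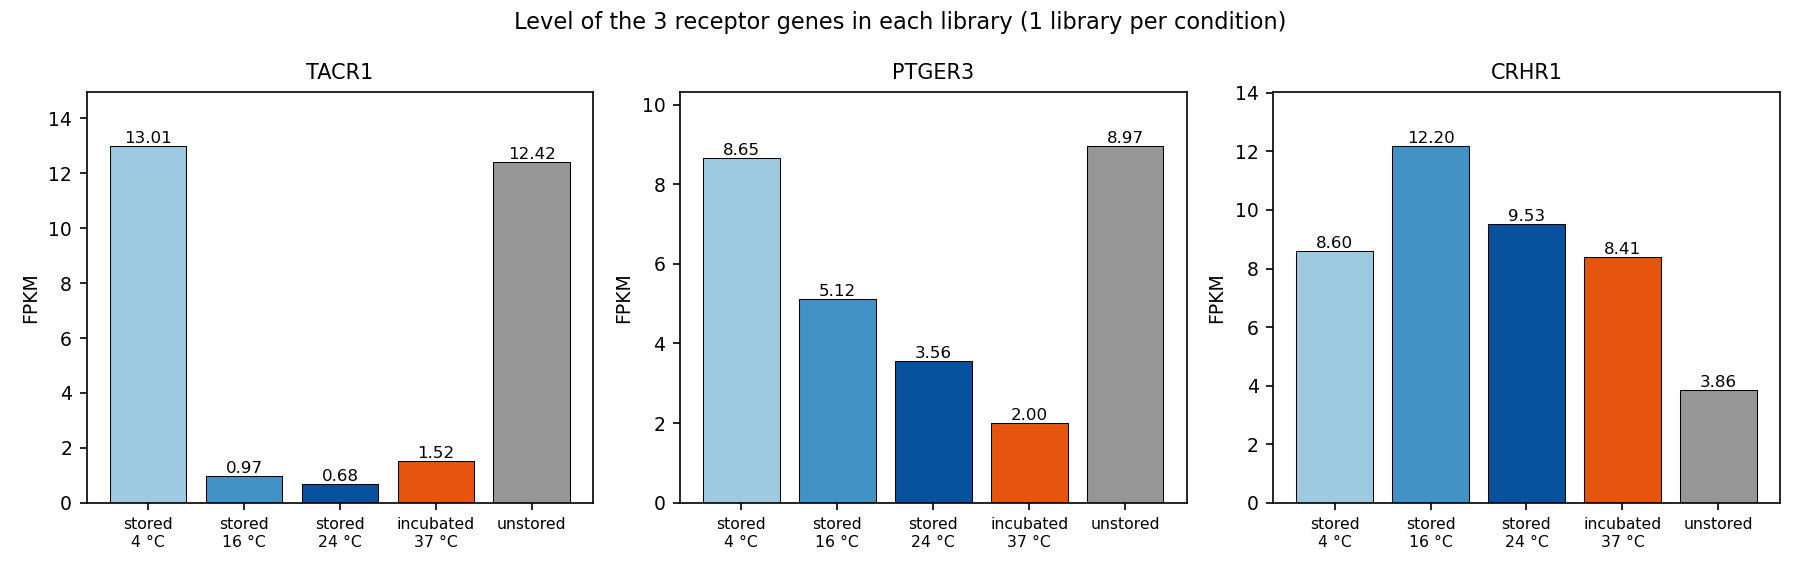
Bars give the FPKM (vertical axis, from 0) of TACR1, PTGER3 and CRHR1 in the libraries stored for 7 days at 4, 16 and 24 °C, incubated at 37 °C and unstored, 1 library each and so without error bars. TACR1 is near 13 in the library stored at 4 °C and in the unstored one and under 2 elsewhere, PTGER3 is lowest in the incubated library at 2.0, and CRHR1 is lowest in the unstored library at 3.86.

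The balance between the receptors changed with these levels, and FPKM, being per length, allow genes to be compared within a library. TACR1 had 1.51 times the FPKM of CRHR1 at 4 °C, 0.08 times at 16 °C, 0.07 times at 24 °C and 0.18 times after incubation, against 3.22 times in the unstored library. PTGER3 had 1.01 times the FPKM of CRHR1 at 4 °C, 0.42 times at 16 °C, 0.37 times at 24 °C and 0.24 times after incubation, against 2.32 times in the unstored library. TACR1 was thus the most abundant of the 3 in the unstored library and the one stored at 4 °C, and CRHR1 in the other 3. By rank, TACR1 lay above 63.0% of all genes at 4 °C, 29.9% at 16 °C, 25.8% at 24 °C and 31.9% after incubation, against 63.8% in the unstored library. CRHR1 lay above 55.6%, 64.2%, 57.4% and 53.4% of genes at 4, 16 and 24 °C and after incubation, against 45.8% in the unstored library.

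To set these differences beside those of all other genes, log2 ratios of FPKM + 1 were taken, a scale on which low genes appear to change less than they do. Higher and lower mean a ratio of at least 1 (2-fold) in that direction, with FPKM above 0 in both libraries. Genes entered with an FPKM of at least 1 in any library, which kept 7733, the 3 receptors among them. The 4 comparisons with the unstored library share that library, so an unusual value in it moves them all.

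At 24 °C against unstored, TACR1 had a log2 ratio of -3.0 and only 3 of 7690 genes had a lower one. PTGER3 was also at least 2-fold lower, at -1.13, and CRHR1 at least 2-fold higher, at 1.12. Of all genes in this comparison, 8.35% lay at least 2-fold lower and 10.5% higher, and the median was 0.04. PTGER3 and CRHR1 were less extreme, with 489 genes below PTGER3 and 634 above CRHR1.

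At 16 °C TACR1 was at -2.77, with 5 of 7689 genes lower, where 8.75% of genes were at least 2-fold lower. CRHR1 was at 1.44, with 158 genes higher, where 7.65% were at least 2-fold higher. PTGER3 was at -0.70, short of 2-fold, and 16.4% of genes had a lower ratio. The median of all genes was -0.04.

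In the incubated library TACR1 was at -2.41 and had the second lowest ratio, with 1 of 7700 genes below it. PTGER3 was at -1.73, with 13 genes below it. The share of all genes past 2-fold here was 2.53% for lower and 8.48% for higher, and the median was 0.12. CRHR1 was at 0.95, just short of 2-fold on this scale, with 724 genes above it.

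At 4 °C none of the 3 receptors reached 2-fold, where the share of all genes past it was 0.637% for higher and 0.0909% for lower. TACR1 was at 0.06 and PTGER3 at -0.05, both below the median of all genes, 0.10. CRHR1 was at 0.98, and only 51 of 7697 genes had a higher ratio. CRHR1 therefore sat nearer to the edge of all genes at 4 °C, where few genes differed, than after incubation at almost the same ratio.

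The split of all genes into higher and lower depends on the scaling between libraries. With FPKM as deposited, the higher genes made up 55.6% of those past 2-fold at 24 °C, 46.6% at 16 °C, 77.0% after incubation and 87.5% at 4 °C. With FPKM rescaled to 1000000 per library these shares were 68.1%, 62.2%, 78.6% and 69.6%, and with median-ratio size factors 48.9%, 47.4%, 63.4% and 70.5%. Rescaling put the median of all genes at 0.19 at 24 °C, 0.11 at 16 °C, 0.15 after incubation and 0.03 at 4 °C, and size factors put it at -0.02, -0.02, -0.01 and -0.01. The receptors past 2-fold kept their direction under both scalings, while TACR1 at 4 °C, near 0, was at -0.02 with rescaling and -0.05 with size factors.

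**Figure D2:**
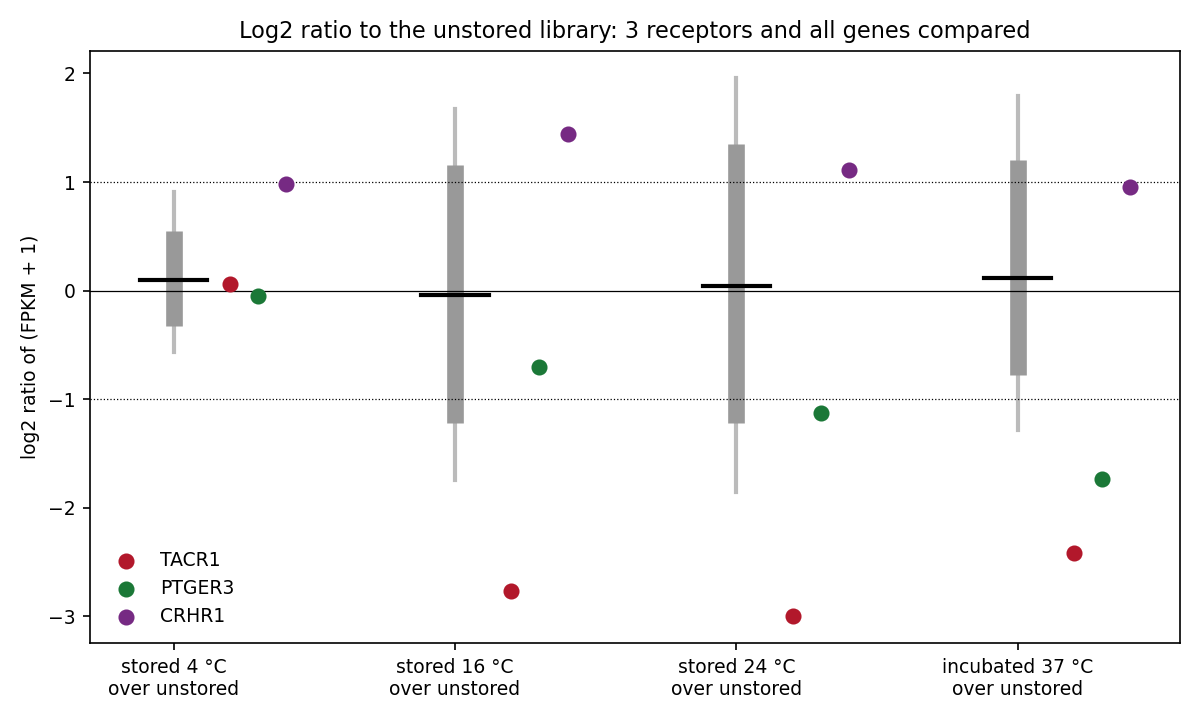
Points give the log2 ratio of FPKM + 1 (vertical axis) of TACR1, PTGER3 and CRHR1 in each of 4 libraries over the unstored library. For all genes compared, the black line marks the median, the wide bar the 5th to 95th percentile and the thin bar the 1st to 99th percentile, with dotted lines at 2-fold. TACR1 lies below the thin bar at 16 °C, at 24 °C and after incubation, PTGER3 lies below it after incubation, and CRHR1 above it at 4 °C.

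Set against each other, the stored libraries split between 4 °C and the warmer temperatures for TACR1. TACR1 was lower at 24 °C than at 4 °C (-3.06) and lower at 16 °C than at 4 °C (-2.83). At 24 °C against 4 °C, 11.7% of all genes were past 2-fold as lower and 9.52% as higher, and at 16 °C against 4 °C the shares were 13% and 7.27%. PTGER3 was at -1.08 at 24 °C against 4 °C and at -0.66 at 16 °C against 4 °C. Between 24 °C and 16 °C no receptor reached 2-fold, with -0.23 for TACR1, -0.42 for PTGER3 and -0.33 for CRHR1, where 1.23% of all genes were past it as lower and 2.83% as higher. CRHR1 was at 0.13 at 24 °C against 4 °C and at 0.46 at 16 °C against 4 °C.

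Against the incubated library, storage at 4 °C left more of TACR1 and PTGER3. At 4 °C TACR1 was at 2.47, with 3 of 7703 genes higher, and PTGER3 at 1.69, where 2.84% of all genes were past 2-fold as higher and 4.73% as lower. At 16 °C PTGER3 was still at least 2-fold above incubation, at 1.03, where 5.44% of all genes were and 14.3% were lower, while TACR1 was at -0.36. At 24 °C no receptor reached 2-fold against incubation, where 5.4% of all genes were past it as higher and 10.2% as lower. The values were 0.60 for PTGER3, -0.58 for TACR1 and 0.16 for CRHR1.

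The ligand side of the tachykinin system was hardly seen. TAC1, the precursor of substance P, was listed at FPKM 0.07 at 4 °C, 0 at 16 °C, 0.14 at 24 °C and 0 after incubation, against 0.13 in the unstored library. Of 8 listed genes of this system besides TACR1, 4 were measured and 2 reached an FPKM of 1, both of them peptidases. ECE1, endothelin-converting enzyme, which also cuts substance P, had FPKM 41.2 at 4 °C, 15.3 at 16 °C, 9.67 at 24 °C and 44.9 after incubation, against 35.4 in the unstored library. Its ratio was past 2-fold as lower in the libraries stored at 16 °C (-1.16) and 24 °C (-1.77), but unlike TACR1 it was not lower after incubation (0.33). MME (neprilysin), a peptidase that breaks down substance P, stayed short of 2-fold, with ratios between -0.58 and 0.39, and ACE, angiotensin-converting enzyme, stayed under an FPKM of 1.

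On the prostanoid side, 15 of 18 listed genes of synthesis, transport and breakdown were measured and 11 reached an FPKM of 1. None of the 11 was past 2-fold at 4 °C or after incubation, 1 was higher at 16 °C, and 1 was higher and 1 lower at 24 °C. The shares of all genes were 7.65% for higher at 16 °C, 10.5% for higher at 24 °C and 8.35% for lower at 24 °C, so 1 of 11 is near the general share. The list medians were 0.13 at 4 °C, -0.18 at 16 °C, -0.15 at 24 °C and 0.27 after incubation, beside 0.10, -0.04, 0.04 and 0.12 over all genes. PTGS2, the inducible cyclooxygenase, had FPKM 3.66 at 4 °C, 16.7 at 16 °C, 6.17 at 24 °C and 2.50 after incubation, against 3.67 in the unstored library. Its ratio reached 1.92 at 16 °C, the one library in which it was past 2-fold. PTGS2 is the sum of 2 rows, and this call depended on the summing. With the highest row per symbol in place of the sum, 2 genes of the pathway lists were higher at 16 °C instead of 3. PTGS2 was the one lost, as the others, ITPR3 and RGS4, have 1 row each.

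PTGS1, the constitutive cyclooxygenase, lay at 1.96, 0.58, 0.65 and 2.49 FPKM at 4, 16 and 24 °C and after incubation, against 1.44 in the unstored library. PTGES, an inducible synthase of prostaglandin E2, stayed between 0.20 and 1.58, and PTGES2, another such synthase, between 14.9 and 32.0. PTGES3, which is also the HSP90 co-chaperone p23, was far more abundant, between 188 and 266. At 24 °C PTGDS, a synthase of prostaglandin D2, was higher (1.61, FPKM 3.32 against 0.42 in the unstored library), and PTGR2, a reductase that breaks prostanoids down, was lower (-1.11, FPKM 5.67 against 13.4 in the unstored library). PTGR1, a reductase of the same kind, and AKR1B1, which can make prostaglandin F2α, stayed short of 2-fold. So did PLA2G4A, which releases arachidonate, and the exporter ABCC4. HPGDS, HPGD and the transporter SLCO2A1 stayed under an FPKM of 1, and TBXAS1, thromboxane synthase, was listed at 0 in all 5 libraries.

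Of 8 other prostanoid receptors, 2 were measured, and PTGER3 was the most abundant of the measured ones in each library. PTGER2, an EP receptor that raises cyclic AMP, had FPKM 0.23 at 4 °C, 1.06 at 16 °C, 0.71 at 24 °C and 0.48 after incubation, against 0.31 in the unstored library. PTGFR, the receptor of prostaglandin F2α, stayed between 0.16 and 0.68.

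In the CRH system the second receptor was nearly level while the first differed. CRHR2, which binds urocortins and in the chicken is the receptor by which CRH releases thyrotropin, had FPKM 8.89 at 4 °C, 7.74 at 16 °C, 8.19 at 24 °C and 7.74 after incubation, against 8.09 in the unstored library. CRHR1 therefore stood at 0.97 times the FPKM of CRHR2 at 4 °C, 1.58 times at 16 °C, 1.16 times at 24 °C and 1.09 times after incubation, against 0.48 times in the unstored library. The ligand gene CRH stayed low, at FPKM 0.40, 0.82, 0.87 and 0.70 at 4, 16 and 24 °C and after incubation, against 0.28 in the unstored library. CRHBP, the protein that binds CRH and limits it, had FPKM 0.55 in the unstored library. It had 1.27 at 4 °C, 0.99 at 16 °C, 0.19 at 24 °C and 0.59 after incubation. In plain FPKM its ratios to unstored were 2.31, 1.80, 0.35 and 1.07 in the same order. UCN3, a urocortin, reached no more than 0.01, and MC2R, the receptor of corticotropin, no more than 0.40. Of the 8 listed genes, 5 were measured and 2 reached an FPKM of 1. With log2 ratios of FPKM + 1, neither of the 2 was past 2-fold in any of the 4 comparisons with unstored. No more than 10.5% of all genes were higher and 8.75% lower in these, so none of 2 is near the general share.

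**Figure D3:**
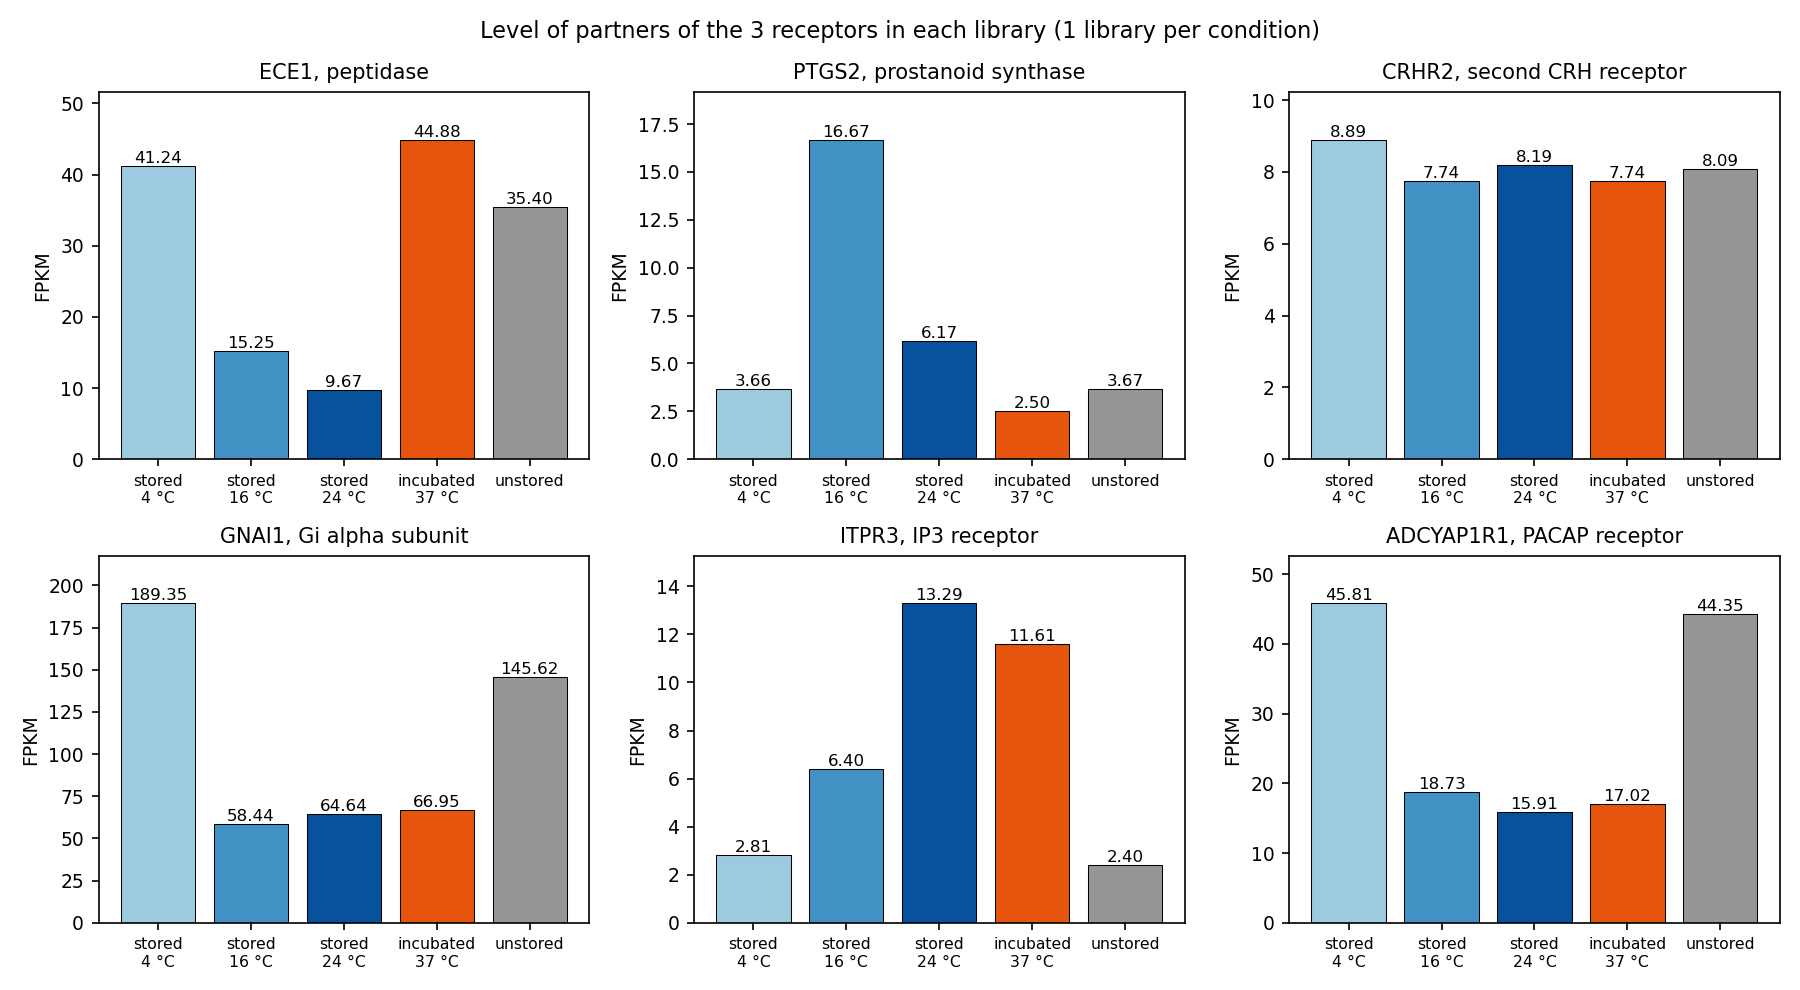
Bars give the FPKM (vertical axis, from 0, with its own scale per gene) of 6 genes set beside the receptors in the 5 libraries, 1 library each. ADCYAP1R1 is another class B receptor and not a partner of the 3. CRHR2 stays between 7.74 and 8.89, and ECE1 is low at 16 and 24 °C only. PTGS2, the sum of 2 rows, is highest at 16 °C at 16.7. GNAI1 and ADCYAP1R1 are low in the 3 libraries in which TACR1 is low, and ITPR3 is high in them.

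In the Gi arm, which PTGER3 uses in mammals, GNAI1, an alpha subunit, had FPKM 189 at 4 °C, 58.4 at 16 °C, 64.6 at 24 °C and 67.0 after incubation, against 146 in the unstored library. It was at least 2-fold lower in the same 3 libraries as TACR1 (-1.30, -1.16 and -1.11). RGS4, which shortens Gi and Gq signals, was higher at 16 °C (1.30) and 24 °C (1.44), and GNAO1, another alpha subunit, after incubation (1.09). Of the 13 genes compared in this arm, 1 was higher and 1 lower at 16 °C and after incubation, and at 24 °C the counts were 2 and 1. Of all genes, 7.65% were higher and 8.75% lower at 16 °C, 10.5% and 8.35% at 24 °C, and 8.48% and 2.53% after incubation, and 1 or 2 of 13 is near the general share at 16 and 24 °C.

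In the Gq arm, which TACR1 uses in mammals, 9 genes were compared and none was at least 2-fold lower, while 1 was higher at 16 °C, 2 at 24 °C and 1 after incubation, beside the same shares of all genes. ITPR3, a calcium channel opened by inositol trisphosphate, had FPKM 2.81 at 4 °C, 6.4 at 16 °C, 13.3 at 24 °C and 11.6 after incubation, against 2.40 in the unstored library. Its ratio was 1.12 at 16 °C, 2.07 at 24 °C and 1.89 after incubation. GNA11, a Gq alpha subunit, was higher at 24 °C (1.02), and ITPR1, a channel of the same kind as ITPR3, was at 0.98 there. The median of this arm was 0.16 at 4 °C, 0.18 at 16 °C, 0.87 at 24 °C and 0.36 after incubation. Over all genes it was 0.10, -0.04, 0.04 and 0.12 in the same order.

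In the Gs and cyclic AMP arm, which CRHR1 uses, 11 genes were compared, and 1 was lower at 16 °C, 1 higher at 24 °C and 2 higher after incubation, beside the same shares. GNAL, a Gs-like alpha subunit, had FPKM 10.5 after incubation against 2.41 in the unstored library (1.75), and the cyclic AMP responsive factor CREB1 was also higher there (1.22). ATF1, a factor of the same family, had FPKM 2.89 at 16 °C against 14.1 in the unstored library (-1.96). The median of this arm was 0.16 at 4 °C, -0.09 at 16 °C, -0.09 at 24 °C and 0.39 after incubation. Among 6 genes of receptor desensitisation, GRK6, a kinase that marks active receptors for arrestin, was lower at 16 °C (-2.91, FPKM 0.70 against 11.8 in the unstored library). RAMP3, a partner of class B receptors, was lower at 24 °C (-1.03). GRK5 stayed short of 2-fold on the scale of FPKM + 1, with 0.88 after incubation as its highest ratio. Its level was low, at FPKM 1.19 after incubation against 0.19 in the unstored library. In plain FPKM that is a ratio of 6.26, and the ratio at 24 °C was 4.37.

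Other receptors of peptides and lipids were set beside these 3. Of 63 other measured receptors, CRHR2 included, between 18 and 23 reached an FPKM of 1 in a library, and their median FPKM lay between 0.28 and 0.48. In the unstored library 2 of the 63 lay above TACR1, 4 above PTGER3 and 9 above CRHR1. At 24 °C 28 lay above TACR1, 11 above PTGER3 and 2 above CRHR1. TACR1 was thus among the highest receptor transcripts before storage and in the middle of them at 24 °C.

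Ratios to unstored were taken for the 30 of these receptors that reached an FPKM of 1 in any library. That rule admits a receptor through its highest library alone, such as OPRM1, with FPKM 1.83 after incubation against 0.31 in the unstored library. At least 2-fold lower were 0 at 4 °C, 8 at 16 °C, 2 at 24 °C and 2 after incubation, and at least 2-fold higher were 2, 0, 2 and 7 in the same order. As shares of the 30, the lower ones were 26.7% at 16 °C and 6.67% at 24 °C and after incubation, beside 8.75%, 8.35% and 2.53% of all genes. The higher ones were 6.67% at 4 °C, 6.67% at 24 °C and 23.3% after incubation, beside 0.637%, 10.5% and 8.48% of all genes. None of the 30 had a ratio as low as TACR1 at 16 °C, at 24 °C or after incubation. None was as low as PTGER3 after incubation, but 10 were lower than it at 16 °C and 2 at 24 °C. None was as high as CRHR1 at 16 °C, but 2 were higher than it at 4 °C, 1 at 24 °C and 7 after incubation.

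ADCYAP1R1, the receptor of the peptide PACAP and like CRHR1 a class B receptor, was low in the same 3 libraries as TACR1. It had FPKM 45.8 at 4 °C, 18.7 at 16 °C, 15.9 at 24 °C and 17.0 after incubation, against 44.4 in the unstored library, with ratios of -1.20, -1.42 and -1.33 in the 3 low libraries. GRPR, the receptor of gastrin-releasing peptide, was low in the same libraries (-1.20, -1.49 and -1.03), from an unstored FPKM of 1.94. EDNRB, an endothelin receptor, went the other way, with 1.16 at 4 °C and 2.11 after incubation. APLNR, the apelin receptor, was higher at 4 °C (1.54) and after incubation (1.32). GCGR, the glucagon receptor, was higher after incubation (1.57), and CALCRL, a receptor of calcitonin gene-related peptide, was lower at 16 °C (-1.34).

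**Figure D4:**
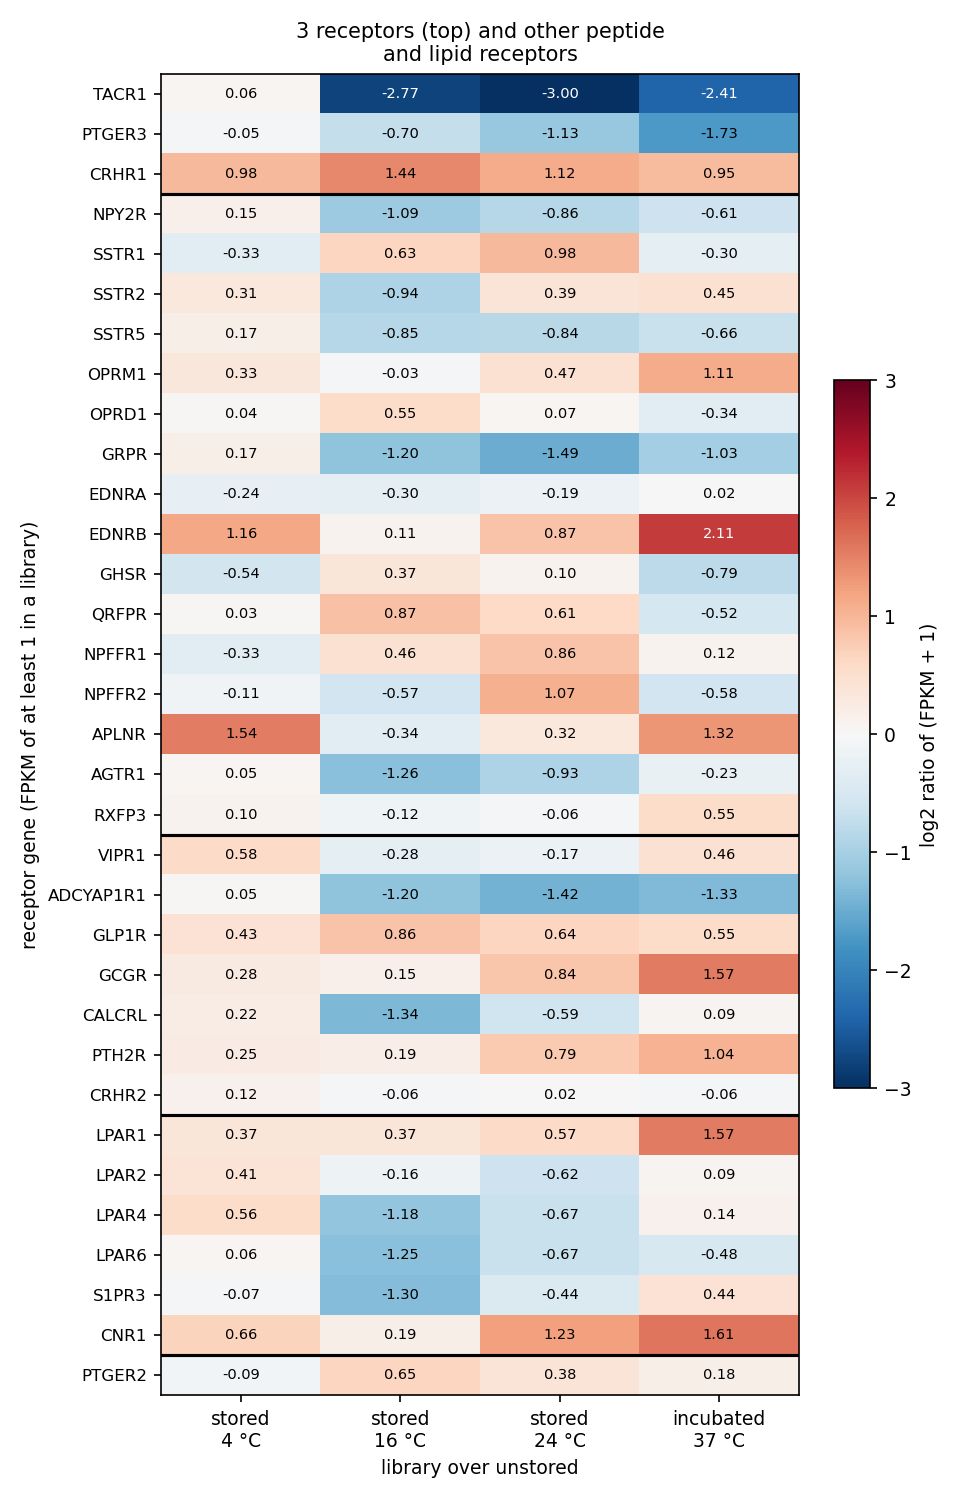
Each row is a receptor gene and each column a library over the unstored library, with the colour and the printed number giving the log2 ratio of FPKM + 1. The 3 receptors at the top are set off from the other 30, in blocks of class A peptide, class B peptide, lipid mediator and prostanoid receptors. TACR1 holds the lowest value in the columns of 16 °C, 24 °C and incubation, and CRHR2 stays near 0 throughout.

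The genes with the pattern most like each receptor were found as those with the smallest root mean square difference of log2(FPKM + 1), centred on each gene's own mean, over the 5 libraries and 7525 genes. For TACR1 these were TMOD1, which caps actin filaments (0.31), the leucine zipper protein TSC22D1 (0.36), the transcription factor SOX14 (0.38) and the potassium channel KCNK4 (0.39). TMOD1 had FPKM 53.7 at 4 °C, 11.4 at 16 °C, 5.43 at 24 °C and 13.2 after incubation, against 49.8 in the unstored library. Even the nearest genes differed from TACR1 by more than the nearest genes of the other receptors did from theirs. The difference is not scaled to a gene's own span, which was widest for TACR1, so these distances do not compare between receptors.

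For PTGER3 the nearest genes were the corepressor RUNX1T1 (0.11), TWISTNB, a subunit of RNA polymerase I (0.12), the splicing regulator PTBP1 (0.14) and TPH2, an enzyme of serotonin synthesis (0.15). PTBP1 had FPKM 229.7 at 4 °C, 170.0 at 16 °C, 107 at 24 °C and 89.6 after incubation, against 254 in the unstored library. For CRHR1 they were the formin INF2 (0.15), the recombination protein RAD51C (0.16), the repressor BHLHE40 (0.16) and the zinc finger protein ZNF746 (0.18). BHLHE40 had FPKM 3.87 at 4 °C, 7.84 at 16 °C, 5.66 at 24 °C and 4.24 after incubation, against 2.32 in the unstored library. With a pseudocount of 0.1 in place of 1 the 4 nearest genes kept 2 for TACR1, 2 for PTGER3 and 1 for CRHR1.

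**Figure D5:**
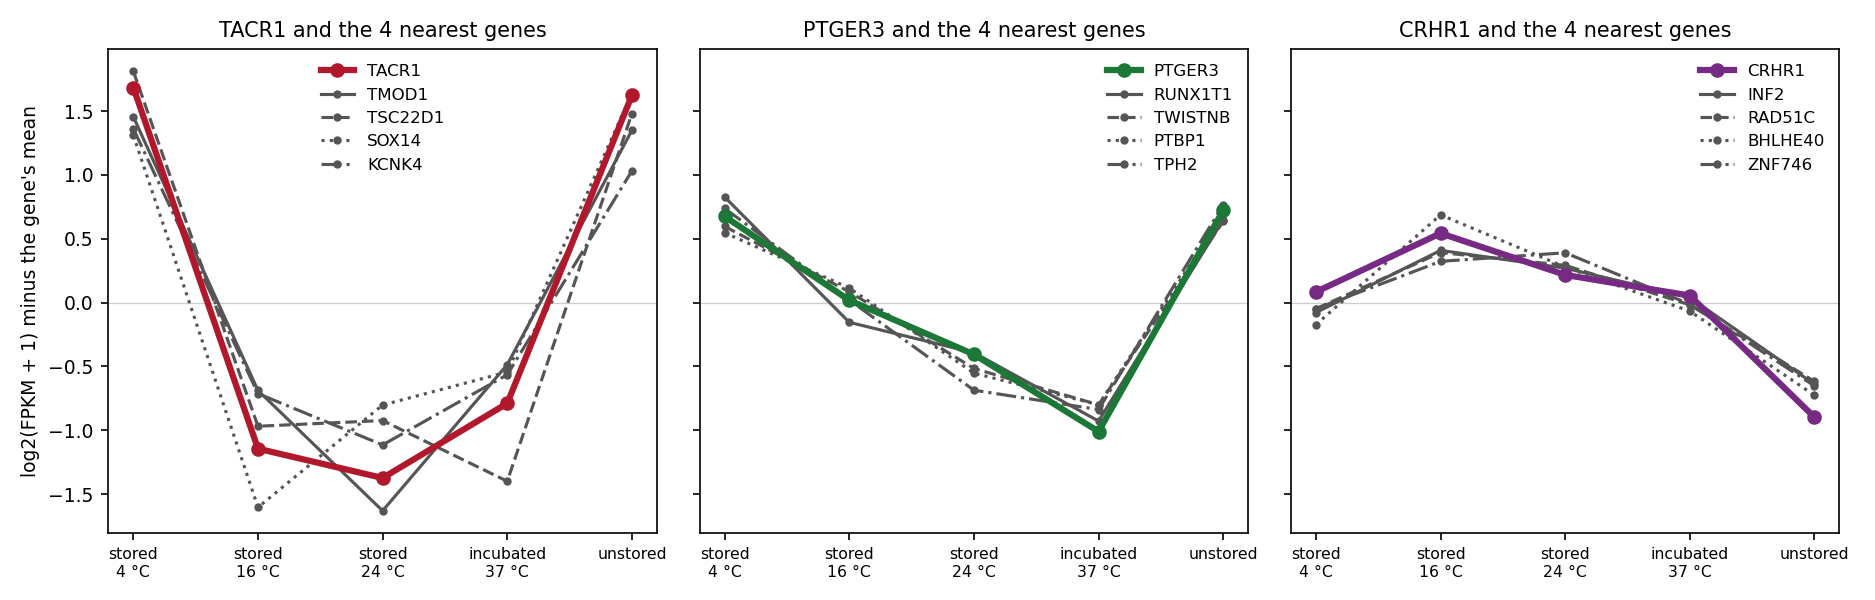
Lines give log2(FPKM + 1) minus the gene's own mean over the 5 libraries (vertical axis) for each receptor, in colour, and the 4 genes nearest to it, in grey, by library (horizontal axis). TACR1 and its nearest genes are high in the unstored library and in the one stored at 4 °C, PTGER3 and its nearest genes are lowest in the incubated library, and CRHR1 and its nearest genes are lowest in the unstored library.

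Markers of other cells were set beside the receptors, since these receptors are known from nerve and muscle. Of 12 neural markers, 7 were measured, and their summed FPKM was 29.8 at 4 °C, 10.3 at 16 °C, 7.00 at 24 °C and 25.6 after incubation, against 20.5 in the unstored library. The members did not go together. NEFM, a neurofilament subunit and the most abundant of them, had FPKM 16.3 at 4 °C, 3.01 at 16 °C, 1.33 at 24 °C and 14.0 after incubation, against 10.2 in the unstored library, and without it the sum was 13.5, 7.27, 5.67 and 11.5 at 4, 16 and 24 °C and after incubation, against 10.3 in the unstored library. SYP, a synaptic vesicle protein, was higher at 24 °C (1.08) and after incubation (1.79). ELAVL4, NEFL, STMN2 and NEFM were at -0.80, -1.55, -1.27 and -2.27 at 24 °C. After incubation they were at -0.62, -0.45, -0.74 and 0.42 in the same order. The median ratio of the 5 neural markers that reached an FPKM of 1 was -0.62 at 16 °C, -1.27 at 24 °C and -0.45 after incubation, and GFAP, of glia, was listed at 0 at 4 °C. Of 10 muscle markers, 7 were measured, with sums between 7.77 and 10.8, and MYOG was listed at 0 in the unstored library. Of 10 hypoblast markers, 8 were measured, and their sum was 178 at 4 °C, 159 at 16 °C, 277.5 at 24 °C and 228 after incubation, against 81.7 in the unstored library. APOA1, an apolipoprotein, gave 113 of the sum at 16 °C and 198 at 24 °C. Without it the sum was 132 at 4 °C, 46.0 at 16 °C, 79.1 at 24 °C and 125.0 after incubation, against 60.3 in the unstored library, so the lowest library was then that of 16 °C, where CRHR1 was highest. GATA5, a transcription factor, was lower at 16 °C (-1.34), and CER1, SOX17 and FOXA2 were at -0.06, -0.15 and -0.32 there. The epiblast sum was 2147 at 4 °C, 1117 at 16 °C, 1009 at 24 °C and 1638 after incubation, against 2083 in the unstored library. The median ratio of the 9 epiblast markers compared was -1.22 at 16 °C, -0.59 at 24 °C and 0.04 after incubation. Over all genes the medians were -0.04, 0.04 and 0.12. After incubation these markers went both ways, from -0.88 for SOX3 to 0.81 for SALL4. The part of these markers in the levels of the receptors was not tested.

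Of 10 white blood cell markers, 7 were measured, with a summed FPKM of 6.21 at 4 °C, 23.5 at 16 °C, 26.1 at 24 °C and 12.3 after incubation, against 4.33 in the unstored library, and LAPTM5 was listed at 0 in 3 libraries and SPI1 in 1. LCP1, an actin-bundling protein, gave 18.5 of the sum at 16 °C and 21.1 at 24 °C, against 1.79 in the unstored library. Without it the sum was 4.97 at 4 °C, 4.98 at 16 °C, 4.97 at 24 °C and 5.69 after incubation, against 2.54 in the unstored library. Most of that rest was CD3E, at 3.87, 3.19, 3.10 and 4.28 in the same order, against 2.03 in the unstored library. PTPRC differed from it, at 0.28, 1.24, 1.07 and 0.49, against 0.20 in the unstored library. Of 12 erythroid markers, 7 were measured, with sums between 5.29 and 9.59 and the globin HBBA listed at 0 in 4 libraries. Most of each sum was HBE, another globin, at 3.98 to 8.78, and without it the sums lay between 0.56 and 1.31. Of 10 egg white and oviduct markers, 8 were measured, with sums of 4.33, 11.6, 33.1 and 7.43 at 4, 16 and 24 °C and after incubation, against 5.67 in the unstored library, and OVALY was listed at 0 in all 5. The egg white sum was highest at 24 °C, where TACR1 was lowest, also without its most abundant member TF, ovotransferrin (18.5 at 24 °C against 3.96 in the unstored library). Most of that rest was AVD (11.55 at 24 °C against 2.59 in the unstored library) and SPP1 (5.99 against 1.04). All 3 members that reached an FPKM of 1 (TF, AVD and SPP1) were at least 2-fold higher at 24 °C, where 10.5% of all genes were. LYZ had FPKM 0.76 at 24 °C against 0.29 in the unstored library. OVAL reached no more than 0.05 in any library, OVALX 0.06 and SPINK7 0.09, too low to give a direction. The part of these markers in the level of TACR1 was not tested.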

How the data were processed

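Polyadenylated RNA of 5 chicken blastoderm libraries, 1 per condition, was sequenced as paired reads on an Illumina HiSeq, per the labels' protocols. The authors deposited FPKM per RefSeq transcript, with 2 decimals, in 32188 rows. The submitters' processing notes name galGal4 as the build, with TopHat2 2.0.8 and Cufflinks 2.0.2, and give no role for either tool. Neither the annotation release nor a scaling between libraries is given in the sources used here.

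Symbols were read from a RefSeq gene table of another build, GRCg7b, by accession without its version. Of the rows, 12609 (39.2%) received one, and rows per symbol were summed. Each receptor had 1 row, none of them with the same version, and isoforms without a matched accession are left out of a gene's value. Reads shared by isoforms are split by an estimate in Cufflinks, so the depth behind a value is unknown and an exact 0 can be a failed estimate.

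Python 3.11.15, numpy 2.4.6 and pandas 2.3.3 were used. Log2 ratios used a pseudocount of 1 and genes with FPKM of at least 1 in any library. The receptors and the 18 gene lists were chosen with earlier results of these data known. Genes named were the receptors, the measured genes of their ligand and enzyme lists, the 3 with the largest ratio to unstored in each other pathway list, and the 4 nearest in pattern to each receptor. Markers and neighbouring genes were named outside this rule, after their values were seen, and the marker sums without the most abundant member were added then too. Other settings were pseudocounts of 0.1 and 5, median-ratio size factors, a rescaling of each library to 1000000, the highest row in place of the sum, no filter and a mean FPKM of at least 5.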

Additional observations from a re-analysis of the deposited data

How the results depend on the processing

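No paired analysis was possible because each condition had 1 library, and for the same reason no library could be left out. Depth is unknown, so the precision of the low TACR1 values (FPKM 0.68 to 1.52) cannot be given. The 30 ratios of the 3 receptors were recomputed with pseudocounts of 0.1 and 5, median-ratio size factors, a rescaling to 1000000 and the highest row per symbol. No ratio past 2-fold turned direction, and TACR1 kept each of its 6 ratios past 2-fold under all 5 settings.

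A pseudocount of 0.1, which by construction widens the ratios of low genes, took CRHR1 past 2-fold at 4 °C (1.14) and after incubation (1.10), and TACR1 at 24 °C against incubation (-1.05). Rescaling put CRHR1 at 1.001 at 4 °C and 1.08 after incubation, and PTGER3 at -0.993 at 24 °C against 4 °C. By construction it raises every FPKM, so that the pseudocount of 1 weighs less, and it shifts the libraries against each other. A pseudocount of 5, which narrows them, left CRHR1 short of 2-fold at 16 °C (0.957) and 24 °C (0.714), and PTGER3 at 24 °C (-0.707) and after incubation (-0.997). It did the same to PTGER3 at 4 °C (0.964) and 16 °C (0.532) against incubation and at 24 °C against 4 °C (-0.673).

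Counts of all genes at least 2-fold different from unstored moved by over 1.5 times as follows, beside 49 higher and 7 lower at 4 °C, 588 and 673 at 16 °C, 805 and 642 at 24 °C, and 653 and 195 after incubation. A pseudocount of 0.1 gave 174 higher and 59 lower at 4 °C, 952 higher at 16 °C, and 1096 higher and 362 lower after incubation. A pseudocount of 5 gave 6 and 0 at 4 °C, 160 and 312 at 16 °C, 260 and 338 at 24 °C, and 160 and 68 after incubation. Size factors gave 31 and 13 at 4 °C. Rescaling, which lets more genes reach an FPKM of 1 (8486 to 8520 compared), gave 78 and 34 at 4 °C, and 1077, 1394 and 1027 higher at 16 °C, 24 °C and after incubation. A mean FPKM of at least 5, which tests fewer genes, gave 27 higher and 1 lower at 4 °C, and 359, 464 and 337 higher at 16 °C, 24 °C and after incubation.

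Over the 82 genes of the 11 pathway lists, 2 were higher and 0 lower at 4 °C, 3 and 12 at 16 °C, 8 and 6 at 24 °C, and 11 and 3 after incubation, beside 0.637% higher and 0.0909% lower of all genes at 4 °C, 7.65% and 8.75% at 16 °C, 10.5% and 8.35% at 24 °C, and 8.48% and 2.53% after incubation. A pseudocount of 0.1 gave 5 and 2 at 4 °C, 10 and 20 at 16 °C, 19 and 13 at 24 °C, and 7 lower after incubation. A pseudocount of 5 gave 1 higher at 4 °C, 1 and 4 at 16 °C, 2 and 3 at 24 °C, and 3 higher after incubation. Rescaling gave 8 higher at 16 °C, and 18 and 11 at 24 °C. A mean FPKM of at least 5 gave 3 higher at 24 °C and 4 after incubation.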

Other observations

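The protein-coding genes next to the receptors in the gene order of GRCg7b were looked up after the receptors' values were seen. Of the 4 genes nearest to PTGER3, all were measured and none reached 2-fold in any comparison with unstored. No more than 10.5% of all genes were higher and 8.75% lower in any of these comparisons, so none of 4 is near the general share. ANKRD13C, CTH, an enzyme of cysteine synthesis, ZRANB2, a splicing factor, and NEGR1, an adhesion protein, had log2 ratios of FPKM + 1 of 0.09, -0.34, 0.54 and -0.25 after incubation, where PTGER3 was at -1.73. Beside TACR1, NCAPH, a condensin subunit, was the one of 4 neighbours with a value, and was at -0.11 at 16 °C, -0.35 at 24 °C and 0.26 after incubation. Beside CRHR1, the acid-sensing channel ASIC2 was listed at 0 in 4 libraries.

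Receptors of other lipid mediators had been listed beside PTGER3. Of 6 that reached an FPKM of 1, 3 were at least 2-fold lower at 16 °C, where 8.75% of all genes were. These were S1PR3 (-1.30), a receptor of sphingosine 1-phosphate, and the lysophosphatidic acid receptors LPAR6 (-1.25) and LPAR4 (-1.18), the last 2 named after their values were seen. None of the 6 was lower by that much at 24 °C or after incubation. After incubation CNR1, a cannabinoid receptor, had FPKM 5.88 against 1.25 in the unstored library (1.61), and LPAR1 3.86 against 0.64 in the unstored library (1.57). CNR1 was also higher at 24 °C (1.23).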
